A study of Homo sapiens with 18 samples.

Results

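The genes described here are 42 regulators of pre-mRNA splicing that do not belong to the SR protein family: 20 heterogeneous nuclear ribonucleoproteins (hnRNPs) and 22 other regulators. They were taken from a list of symbols, chosen with earlier results of these data known, and matched by Ensembl ID to the 60252 genes of the count table. Of the 42, 40 passed the filter on low counts, 19 hnRNPs and 21 other regulators. HNRNPH2 and RBM10 did not pass. The classes follow the list: PCBP1, PCBP2 and PTBP1 can also be counted as hnRNPs but are placed here with the other regulators. RNA was sequenced from structures that MCF-10A cells, a non-tumorigenic line of immortalised human mammary epithelium, had formed after 8 days in Matrigel, a gel of basement membrane proteins. All cells carried a stable retroviral construct in the pWZL vector. Its insert encoded TRA2B, which is SR-like, or an SR protein (SRSF2, SRSF4, SRSF6, SRSF9) in the 5 overexpression (OE) groups, and Control carried it empty. The series was designed to ask how gene expression and splicing differ between each OE group and Control, and only gene expression was analysed here. Each of the 6 groups had 3 samples. In SRSF4-OE, SRSF6-OE, TRA2B-OE and Control, replicates 1 and 2 were lanes of the same library, so their counts were summed (rep 1-2 below), which left 14 libraries: 3 each of SRSF2-OE and SRSF9-OE and 2 of each other group.

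hnRNPs are abundant nuclear proteins that coat new transcripts. Many of them, such as HNRNPA1, repress exons, often at sites where SR proteins act in the opposite direction, so the ratio of the classes is known to set the splicing of many exons. The other regulators include tissue-linked switches such as the PTBP, MBNL, CELF and RBFOX families, and proteins that aid the recognition of weak splice sites, such as TIA1. Several members also act on mRNA stability or translation in the cytoplasm, as HNRNPD and ELAVL1 do.

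The libraries held 42959069 to 121601376 counts. Of the introduced factors, SRSF9 stood highest over Control in its own group, with a log2 fold change of 2.71 ± 0.33 (standard error), followed by SRSF4 with 1.10 ± 0.15, SRSF2 with 0.80 ± 0.24 and TRA2B with 0.71 ± 0.16. No introduced factor passed edgeR's test in its own group, with edgeR adjusted p of 0.158 for SRSF9, 0.109 for SRSF4 and 0.169 for TRA2B. DESeq2 called SRSF9, SRSF4 and TRA2B in their own groups, but neither SRSF2 (DESeq2 adjusted p = 0.0769) nor SRSF6. SRSF2 had 214, 396 and 310 CPM in SRSF2-OE, against 204 and 176 CPM in Control. Its lowest SRSF2-OE library thus lay below the 272 and 248 CPM of SRSF4-OE. TRA2B had 201 and 147 CPM in TRA2B-OE, against 106 and 105 CPM in Control, and 158 and 168 CPM in SRSF4-OE. SRSF6 had 417 and 283 CPM in the libraries labelled SRSF6-OE, against 400 and 239 CPM in Control, so the groups overlapped, and SRSF6-OE is named here by its label alone. Basal mammary markers were high in all 14 libraries, with KRT5 at 7079 to 20009 CPM and TP63 at 113 to 255 CPM. Of the epithelial genes, CDH1 had 91.2 to 334 CPM, KRT8 87.2 to 176 and KRT18 92.6 to 272, but EPCAM only 0.54 to 11.4 CPM. PTPRC and CD3E (blood cells), CDH5 and VWF (endothelium), and SYP and ELAVL4 (neurons) stayed at or below 0.18 CPM. RBFOX3, also a neuron gene, had 0.15 to 0.53 CPM. The fibroblast genes COL1A1 (44.0 to 278 CPM) and DCN (6.30 to 413 CPM) were present. PDGFRB had 0.13 to 2.68 CPM and COL3A1 at most 0.045 CPM. Mitochondrial genes took 6.45% to 16.4% of the counts. The descriptions of 4 libraries, the summed ones, carry a library ID, and those of the other 10 a plain number. This difference is called the label set below. It was a term in the statistical model, because SRSF2-OE and SRSF9-OE consist of numeric libraries only. In bulk RNA, fewer cells of a type and less RNA per cell cannot be told apart.

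Promoters are shown for HNRNPAB, HNRNPD, HNRNPDL and PTBP1, the members that passed DESeq2's test in at least 1 group. Each covers 250 bases before to 50 bases after the start of the gene in RefSeq (GRCh38.p14), read 5′ to 3′ along the gene: chr5:178204283-178204582 on the plus strand, chr4:82373942-82374241 and chr4:82430176-82430475 on the minus strand, and chr19:797202-797501 on the plus strand. Capitals mark CACGTG (the E-box bound by MYC, MAX and USF proteins), GGGCGG (the GC box) and CCAAT, each on either strand.
HNRNPAB: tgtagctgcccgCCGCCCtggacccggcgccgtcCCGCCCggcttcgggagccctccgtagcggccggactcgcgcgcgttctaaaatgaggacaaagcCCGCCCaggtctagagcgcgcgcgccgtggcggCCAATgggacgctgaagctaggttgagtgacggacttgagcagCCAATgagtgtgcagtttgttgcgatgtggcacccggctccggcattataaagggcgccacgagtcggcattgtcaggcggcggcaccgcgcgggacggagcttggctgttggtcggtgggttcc
HNRNPD: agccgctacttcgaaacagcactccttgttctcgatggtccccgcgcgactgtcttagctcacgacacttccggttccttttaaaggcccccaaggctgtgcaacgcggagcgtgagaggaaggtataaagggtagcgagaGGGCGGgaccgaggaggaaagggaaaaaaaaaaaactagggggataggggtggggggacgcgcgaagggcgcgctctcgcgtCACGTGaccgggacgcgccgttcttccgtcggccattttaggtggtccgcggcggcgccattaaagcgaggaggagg
HNRNPDL: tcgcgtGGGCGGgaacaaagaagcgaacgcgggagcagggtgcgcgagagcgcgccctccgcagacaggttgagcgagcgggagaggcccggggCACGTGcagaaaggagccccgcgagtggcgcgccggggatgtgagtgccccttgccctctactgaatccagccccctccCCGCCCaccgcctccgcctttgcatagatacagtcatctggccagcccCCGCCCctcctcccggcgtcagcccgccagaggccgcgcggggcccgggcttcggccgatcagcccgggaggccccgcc
PTBP1: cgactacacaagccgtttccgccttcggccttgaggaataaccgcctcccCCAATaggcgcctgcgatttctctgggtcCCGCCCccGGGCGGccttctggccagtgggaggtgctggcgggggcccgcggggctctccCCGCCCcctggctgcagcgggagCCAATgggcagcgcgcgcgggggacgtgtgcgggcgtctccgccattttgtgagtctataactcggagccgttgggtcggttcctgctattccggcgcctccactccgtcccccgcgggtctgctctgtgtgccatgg
HNRNPD and HNRNPDL, paralogs that lie 48.1 kb apart on chromosome 4, each hold 1 CACGTG, and HNRNPAB and PTBP1 hold none. Promoters were matched for 36 of the 42 members, 19 hnRNPs and 17 other regulators. CACGTG was present in 8 of 19 hnRNP promoters (42.1%), in 1 of 17 promoters of other regulators (5.88%, KHDRBS1) and in 7.26% of all 35116 promoters of this length. The 8 were those of HNRNPA3, HNRNPD, HNRNPDL, HNRNPH2, HNRNPH3, HNRNPM, HNRNPUL1 and SYNCRIP. CCAAT was present in 63.2% of hnRNP promoters, 29.4% of those of other regulators and 34.6% of all, and GGGCGG in 78.9%, 70.6% and 45.0%. A match describes the sequence and is neither a site nor a cause.

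Per kilobase of exon, the hnRNPs were the more abundant class. Their median over genes was 29.7 CPM per kb, and that of the other regulators was 13.1 CPM per kb. Of the 10 genes with the highest mean, 9 were hnRNPs: HNRNPK, a poly(C)-binding protein, came first with 114 CPM per kb, followed after PCBP1 (113 CPM per kb) by HNRNPAB (94.5), HNRNPH1 (84.1) and HNRNPF (74.9 CPM per kb). PCBP1 is itself a poly(C)-binding protein, related to HNRNPK, and can also be counted as an hnRNP. Of the 10 lowest, 9 were other regulators, ending with PTBP2 at 1.04, RBM47 at 0.68 and KHDRBS3 at 0.41 CPM per kb. PTBP2 is the neuronal relative of PTBP1, and KHDRBS3 a relative of KHDRBS1 (Sam68). HNRNPLL, a relative of HNRNPL known for splicing of CD45 in lymphocytes, was the only hnRNP among those 10, with 4.93 CPM per kb. Between neighbours in this order the ranges over the 14 libraries overlapped in 38 of 39 pairs, the exception being HNRNPLL over MBNL3. The exon length is that of all annotated exons together, so a gene with a long unused exon reads lower.

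**Figure D1:**
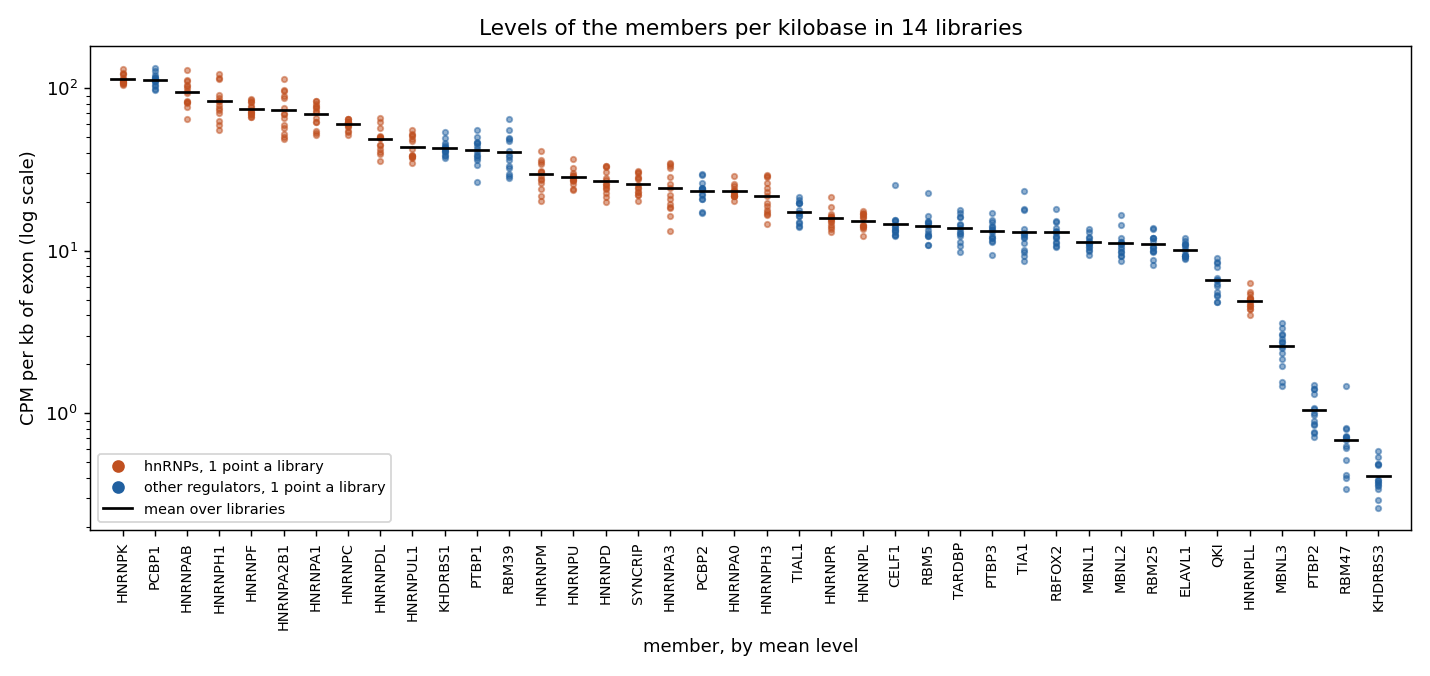
Level of each of the 40 members in CPM per kb of exon (log axis), with 1 point for each of the 14 libraries and a black bar at the mean; hnRNPs are orange and other regulators blue. Of the 10 genes on the left, beginning with HNRNPK at 114 CPM per kb, 9 are orange, and of the 10 on the right 9 are blue, down to KHDRBS3 at 0.41 CPM per kb.

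The spread of the members among the libraries was close to that of other well-expressed genes. The SD of log2 CPM over the 14 libraries had a median of 0.23 for hnRNPs and 0.25 for other regulators, against 0.27 for the 4224 genes with a mean of at least 50 CPM. Over 5 contrasts and 40 members, none of 200 log2 fold changes exceeded 1 in size, against 13.5% for all genes tested. The median size was 0.17 for members and 0.34 for all genes tested, many of which have lower counts than the members. By edgeR's quasi-likelihood test, with p adjusted by Benjamini-Hochberg over 21326 genes, 0 of 40 members passed an adjusted p of 0.05 in any contrast with Control. In the test over all groups, 0 members passed either (0.0422% of all genes passed), and the smallest adjusted p was 0.267, for HNRNPAB. Without adjustment, 4 members had p below 0.05 in that test, 2 of each class (13.6% of all genes): HNRNPAB, HNRNPD, PTBP1 and MBNL2. DESeq2 on the same libraries called 1 member there, HNRNPAB (adjusted p = 0.00129), against 8.04% of all genes. The introduced factors did not pass edgeR's test in their own groups either, so 0 calls do not show that the members were unchanged. The labels do not say whether replicates came from separate cultures, so each p reflects only how far these libraries spread. All 5 contrasts share the same 2 Control libraries.

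**Figure D2:**
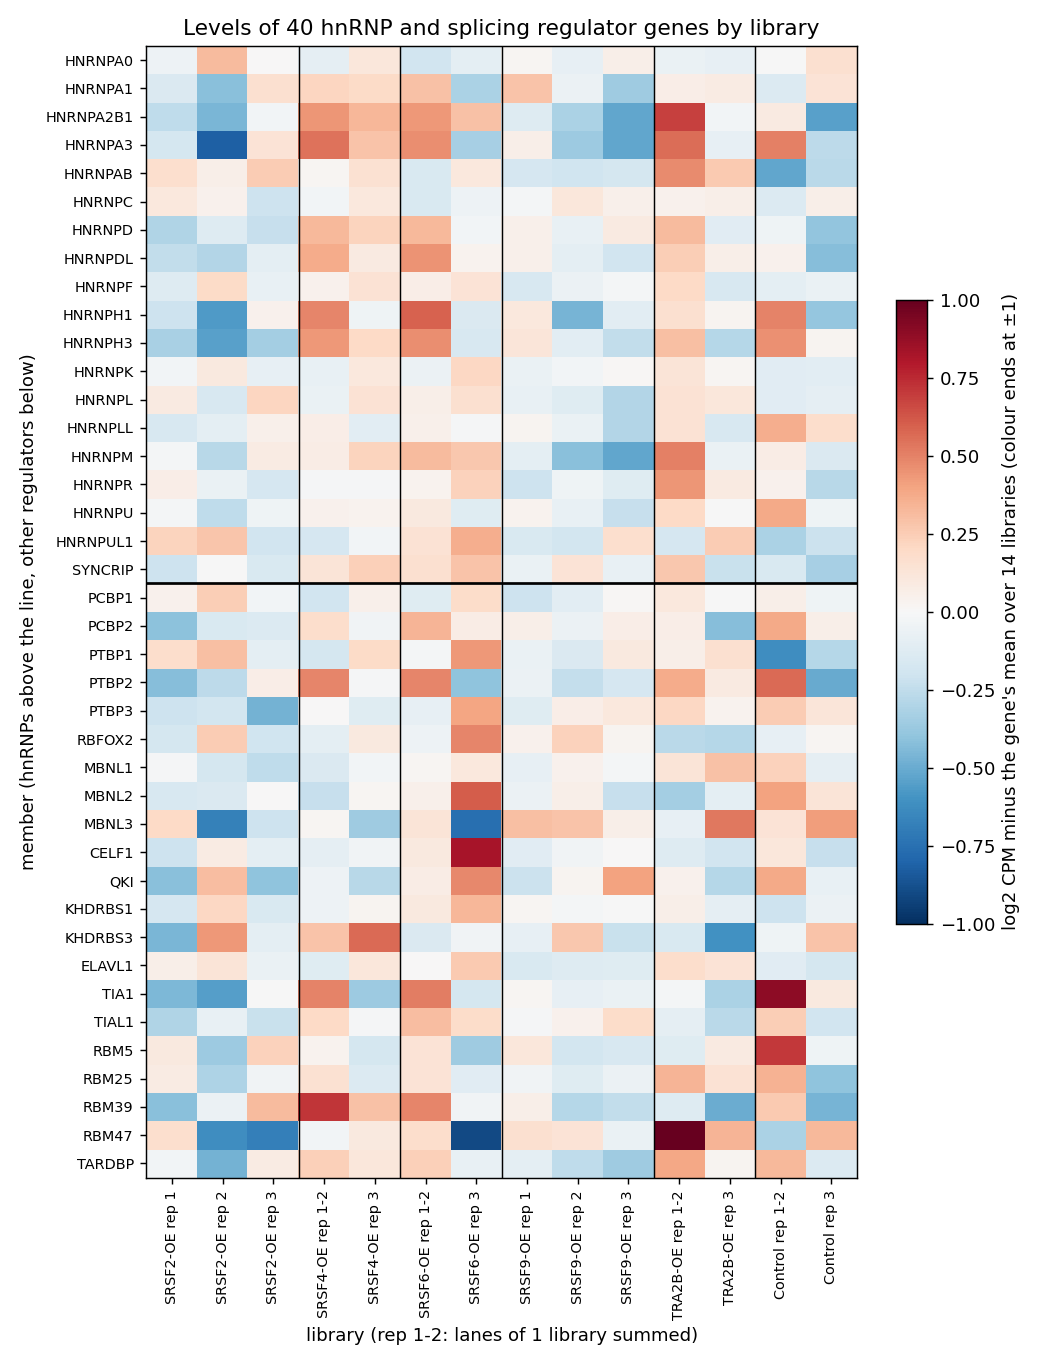
Log2 CPM of the 40 members in the 14 libraries, each gene centred on its own mean, with hnRNPs above the horizontal line and other regulators below; colours end at ±1. The Control libraries (right) are pale blue to blue for HNRNPAB, HNRNPK, HNRNPUL1 and PTBP1, and Control rep 1-2 is red for TIA1, RBM5 and PTBP2. For TIA1 and PTBP2, SRSF4-OE rep 1-2 and SRSF6-OE rep 1-2 are on the red side too.

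In SRSF2-OE, members lay on both sides of Control. The 19 hnRNPs had a median log2 fold change of 0.06 and the 21 other regulators one of -0.11, against 0.04 for all genes. Fold changes were above 0 in 11 of 19 hnRNPs and 7 of 21 other regulators (53.0% of all genes). HNRNPAB, an RNA-binding protein of the A/B type, was the highest hnRNP, with 224, 207 and 238 CPM in SRSF2-OE, against 139 and 165 CPM in Control. The groups did not overlap, and the log2 fold change was 0.50 ± 0.15 (edgeR adjusted p = 0.233). PTBP3, a paralog of the splicing repressor PTBP1, had 93.0, 94.5 and 77.4 CPM in SRSF2-OE and 128 and 117 CPM in Control. All SRSF2-OE libraries lay below Control (log2 fold change -0.48 ± 0.18, edgeR adjusted p = 0.316). MBNL2, a muscleblind protein that switches exons between fetal and adult forms, had 48.1, 48.5 and 53.8 CPM in SRSF2-OE, against 71.1 and 58.6 CPM in Control. The log2 fold change of MBNL2 was -0.48 ± 0.19 (edgeR adjusted p = 0.319) and ran from -0.85 without Control rep 3 to -0.22 without Control rep 1-2.

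In the same contrast, HNRNPH3, of the family that binds runs of G, was the lowest hnRNP, with 90.9, 77.9 and 89.7 CPM in SRSF2-OE and 156 and 116 CPM in Control. For HNRNPH3 the log2 fold change was -0.41, with an unadjusted p of 0.030. No member passed edgeR's test (0.0% of all genes passed), and none passed DESeq2's (2.95% of all genes). Without adjustment, 6 members had p below 0.05, 2 hnRNPs and 4 other regulators (13.4% of all genes). All 3 libraries lay above both Control libraries for 5 members (16.7% of all genes) and below them for 6 (17.5% of all genes). These shares of members are near those of all genes.

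In SRSF4-OE, the hnRNPs lay mostly above Control and the other regulators on both sides of it. The median log2 fold change was 0.16 for hnRNPs and -0.02 for other regulators, against -0.04 for all genes. The median of the other regulators was above 0 in 7 of the 14 fits without a single library, up to 0.10 without Control rep 1-2. Fold changes were above 0 in 16 of 19 hnRNPs and 10 of 21 other regulators (46.9% of all genes). HNRNPD (AUF1), which binds AU-rich elements and is known to speed mRNA decay, had 231 and 214 CPM in SRSF4-OE, against 179 and 140 CPM in Control. The groups did not overlap. The log2 fold change was 0.50 ± 0.14, and the adjusted p was 0.239 in edgeR and 0.0292 in DESeq2. HNRNPD was the only member that DESeq2 called there, beside 2.94% of all genes. That call held in 8 of 14 fits that left out a single library. It was lost without SRSF2-OE rep 3 or SRSF9-OE rep 1, when DESeq2 called 549 and 402 genes, against 566 with all libraries. It was also lost without either Control or either SRSF4-OE library. Those fits leave 1 library in a group, and their calls changed over all genes, so they say little of HNRNPD itself.

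HNRNPA2B1, an A/B hnRNP known for RNA transport as well as splicing, had 900 and 830 CPM in SRSF4-OE and 702 and 454 CPM in Control. At 0.62 ± 0.23, its log2 fold change was the highest of any member there (edgeR adjusted p = 0.275). RBM39, a partner of the splice site factor U2AF, had 776 and 578 CPM in SRSF4-OE, against 565 and 342 CPM in Control. The groups overlapped for neither gene, and RBM39 had a log2 fold change of 0.60 ± 0.24 (edgeR adjusted p = 0.290). MBNL3, the X-linked muscleblind gene, had 30.8 and 23.8 CPM in SRSF4-OE and 33.5 and 40.6 CPM in Control. The log2 fold change of MBNL3 was -0.45 ± 0.35, running from -0.66 without Control rep 1-2 to -0.19 without Control rep 3. MBNL2 had 45.6 and 54.3 CPM in SRSF4-OE, against the 71.1 and 58.6 CPM of Control. MBNL2 thus had a log2 fold change of -0.39 ± 0.19, but of -0.03 without Control rep 1-2 and -0.68 without Control rep 3.

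No member passed edgeR's test in SRSF4-OE (0.0% of all genes). Without adjustment, 7 members had p below 0.05, 5 hnRNPs and 2 other regulators, all with fold changes above 0 (14.9% of all genes, either direction). Both SRSF4-OE libraries lay above both Control libraries for 13 members, 10 hnRNPs and 3 other regulators (25.3% of all genes), and below them for 4 (27.2%).

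**Figure D3:**
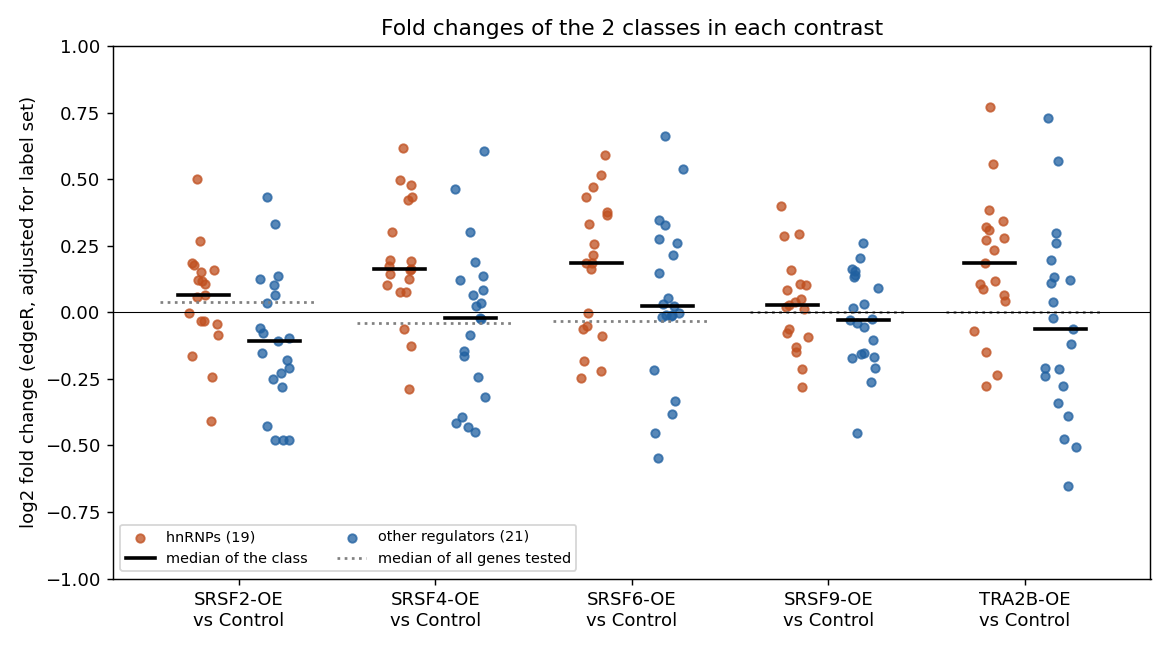
Log2 fold change over Control of each tested member (edgeR, adjusted for label set) in the 5 OE groups, hnRNPs in orange (19) and other regulators in blue (21), with black bars at the class medians and dotted lines at the median of all genes. The hnRNP bar lies at 0.16 to 0.18 in SRSF4-OE, SRSF6-OE and TRA2B-OE and at 0.03 to 0.06 in SRSF9-OE and SRSF2-OE; the bar of the other regulators lies between -0.11 and 0.02.

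In SRSF6-OE, PTBP1 and HNRNPDL were called higher by DESeq2, which called 6.46% of all genes, but not by edgeR. PTBP1, the pyrimidine tract-binding repressor of neuronal and muscle exons, had 278 and 380 CPM in SRSF6-OE, against 183 and 231 CPM in Control. The groups did not overlap, the log2 fold change was 0.66 ± 0.18, and the adjusted p was 0.156 in edgeR and 0.0151 in DESeq2. The DESeq2 call held in 11 of 14 fits without a single library and was lost without either Control library or SRSF6-OE rep 3. These 3 fits leave 1 library in a group and also called fewer of all genes, so they say little of PTBP1 itself. HNRNPDL, the close paralog of HNRNPD, had 359 and 270 CPM in SRSF6-OE and 270 and 196 CPM in Control. The lower SRSF6-OE library lay just under the higher Control library. Its log2 fold change was 0.43 ± 0.15, with an adjusted p of 0.198 in edgeR and 0.0462 in DESeq2. That call held in only 2 of 14 fits without a single library, those without SRSF9-OE rep 3 or TRA2B-OE rep 3. DESeq2 called 1090 and 1918 genes in these fits, against 1189 with all libraries.

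HNRNPUL1, a relative of the nuclear scaffold protein HNRNPU, had 312 and 364 CPM in SRSF6-OE, against 228 and 244 CPM in Control (log2 fold change 0.52 ± 0.20, edgeR adjusted p = 0.219). HNRNPA2B1 had 893 and 811 CPM in SRSF6-OE against 702 and 454 CPM in Control. That was a log2 fold change of 0.59 ± 0.23 (edgeR adjusted p = 0.216). Neither gene's groups overlapped. MBNL3 had 33.3 and 18.04 CPM in SRSF6-OE and 33.5 and 40.6 CPM in Control. Its log2 fold change of -0.55 ± 0.35 ran from -1.12 without SRSF6-OE rep 1-2 to -0.06 without SRSF6-OE rep 3. HNRNPA0, an intronless A/B hnRNP gene, had 177 and 188 CPM in SRSF6-OE, against 201 and 225 CPM in Control (log2 fold change -0.22 ± 0.16).

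The median log2 fold change in SRSF6-OE was 0.18 for hnRNPs and 0.02 for other regulators, against -0.03 for all genes. Without SRSF6-OE rep 3 or Control rep 3, the median of the other regulators was below 0 (lowest -0.051). Fold changes were above 0 in 12 of 19 hnRNPs and 11 of 21 other regulators (47.9% of all genes). No member passed edgeR's test (0.00469% of all genes). Without adjustment, 8 members had p below 0.05, 6 hnRNPs and 2 other regulators, all with fold changes above 0 (19.5% of all genes, either direction). Both libraries lay above both Control libraries for 12 members, 9 of them hnRNPs (22.8% of all genes), and below them for 3 (24.4%). With library totals in place of TMM scaling, the median of all genes shifted by -0.15 in this contrast, and the medians became 0.031 for hnRNPs and -0.13 for other regulators.

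In SRSF9-OE, the group in which the introduced factor stood highest over Control, all 40 log2 fold changes of members lay between -0.45 and 0.40. Median log2 fold changes were 0.03 for hnRNPs and -0.03 for other regulators, against 0.00 for all genes. The hnRNP median was -0.036 without Control rep 3, and that of the other regulators 0.050 without Control rep 1-2. Fold changes were above 0 in 12 of 19 hnRNPs and 9 of 21 other regulators (50.2% of all genes). SYNCRIP (hnRNP Q), which acts in mRNA transport and translation, had 199, 229 and 198 CPM in SRSF9-OE and 188 and 166 CPM in Control. The groups did not overlap, with a log2 fold change of 0.30 ± 0.18 (edgeR adjusted p = 0.870). MBNL2 had 51.7, 55.8 and 45.8 CPM in SRSF9-OE, against 71.1 and 58.6 CPM in Control. Its log2 fold change was -0.45 ± 0.19 (edgeR adjusted p = 0.870), -0.19 without Control rep 1-2 and -0.82 without Control rep 3. No member passed edgeR's test (0.0% of all genes) or DESeq2's (0.0704%), and 2 had an unadjusted p below 0.05, HNRNPD and MBNL2 (4.47% of all genes). All 3 libraries lay above both Control libraries for 7 members (16.5% of all genes) and below them for 4 (17.6%).

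In TRA2B-OE, HNRNPAB was called higher by DESeq2 but not by edgeR, with the largest log2 fold change of any member in the 5 contrasts. It had 277 and 240 CPM in TRA2B-OE, against 139 and 165 CPM in Control. Both TRA2B-OE libraries lay above Control, the log2 fold change was 0.77 ± 0.16, and the adjusted p was 0.135 in edgeR and 0.000797 in DESeq2, which called 2.43% of all genes. The DESeq2 call held in 12 of 14 fits without a single library and was lost without Control rep 1-2 or TRA2B-OE rep 1-2. These 2 fits leave 1 library in a group and also called fewer of all genes, so they say little of HNRNPAB itself. In edgeR the log2 fold change ran from 0.58 without TRA2B-OE rep 1-2 to 0.97 without TRA2B-OE rep 3. The gene overlaps PHYKPL on the opposite strand, and the sources used here do not say whether counting used strand.

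TIA1, which binds U-rich stretches next to weak splice sites and aids exon inclusion, had 82.4 and 67.0 CPM in TRA2B-OE and 155 and 89.3 CPM in Control. The groups did not overlap, with a log2 fold change of -0.65 ± 0.20 (edgeR adjusted p = 0.275) that ran from -0.91 without TRA2B-OE rep 3 to -0.40 without TRA2B-OE rep 1-2. PTBP1 had 293 and 315 CPM in TRA2B-OE, against 183 and 231 CPM in Control (log2 fold change 0.57 ± 0.18, edgeR adjusted p = 0.276). MBNL2 had 42.4 and 50.1 CPM in TRA2B-OE, against 71.1 and 58.6 CPM in Control. Its log2 fold change of -0.51 ± 0.19 became -0.15 without Control rep 1-2 and -0.80 without Control rep 3.

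Both genes with the lowest levels also parted in TRA2B-OE. RBM47, an RNA-binding protein of epithelia, had 12.6 and 6.88 CPM in TRA2B-OE and 4.37 and 6.83 CPM in Control. Its lower TRA2B-OE library nearly touched the higher Control library, and the log2 fold change of 0.73 ± 0.43 ran from 0.17 without Control rep 1-2 to 1.41 without Control rep 3. KHDRBS3 had 3.09 and 2.27 CPM in TRA2B-OE, against 3.33 and 4.20 CPM in Control. The log2 fold change of KHDRBS3, -0.48 ± 0.34, ran from -0.82 without TRA2B-OE rep 1-2 to -0.16 without TRA2B-OE rep 3.

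The median log2 fold change in TRA2B-OE was 0.18 for hnRNPs and -0.06 for other regulators, against -0.00 for all genes, and fold changes were above 0 in 15 of 19 hnRNPs and 9 of 21 other regulators (49.9% of all genes). Without Control rep 1-2, the median of the other regulators was 0.052. No member passed edgeR's test (0.00938% of all genes). Without adjustment, 9 members had p below 0.05 (12.0% of all genes): 5 hnRNPs, all with fold changes above 0, and 4 other regulators, of which PTBP1 lay above Control and TIA1, MBNL2 and PCBP2 below it. Both libraries lay above both Control libraries for 9 members, 6 of them hnRNPs (18.3% of all genes), and below them for 6, of which 2 were hnRNPs (18.2%).

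**Figure D4:**
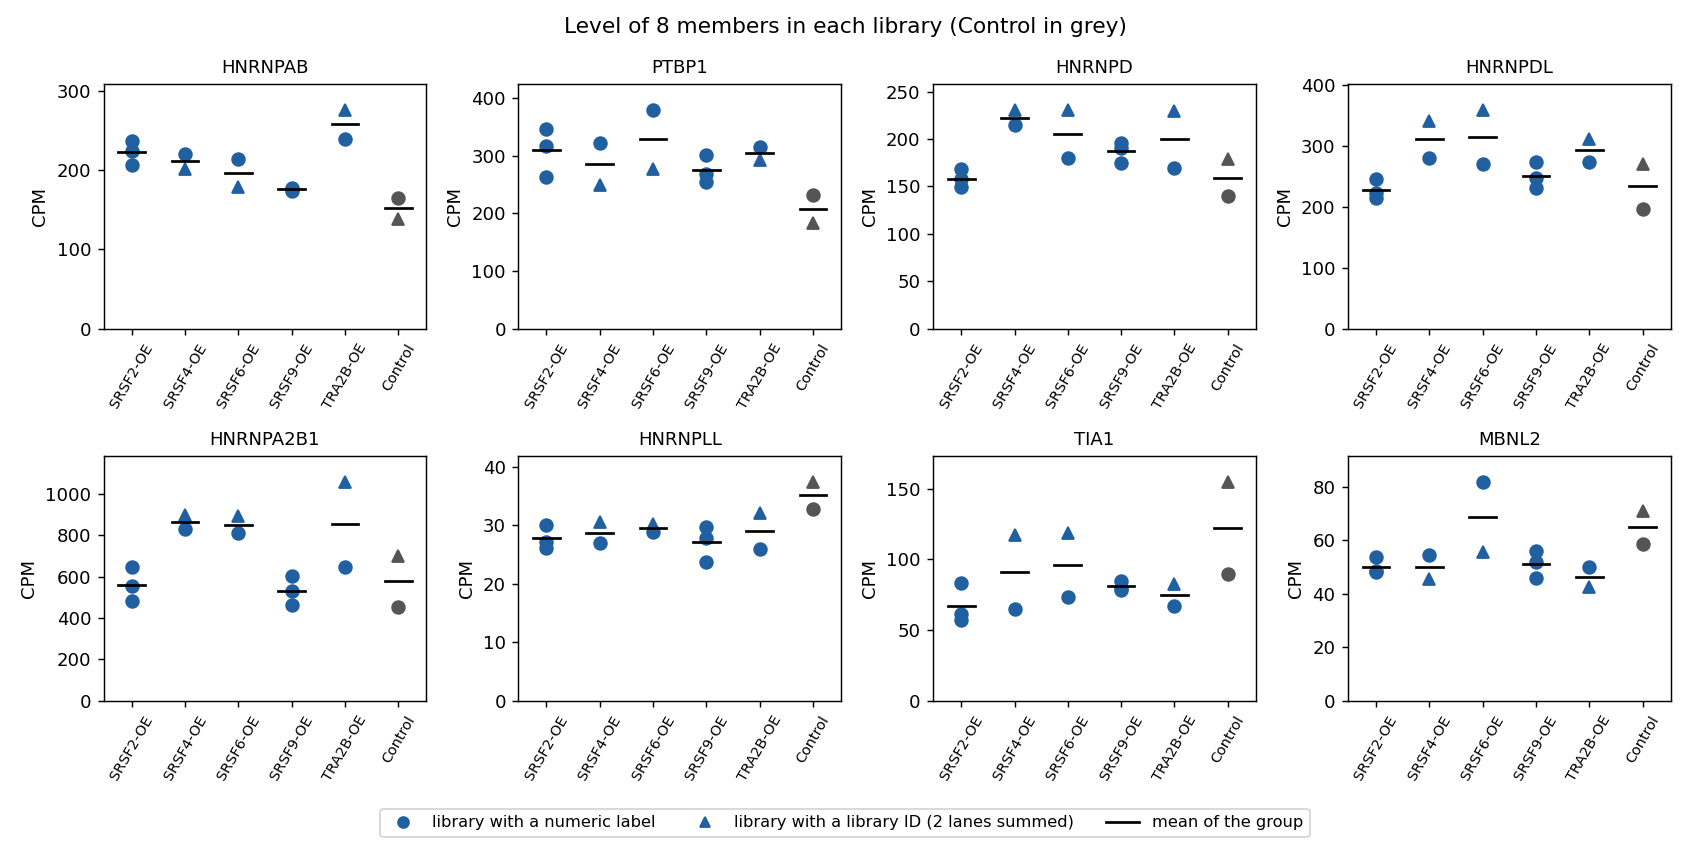
CPM of 8 members in each library by group, OE groups in blue and Control in grey on the right; circles are libraries with a numeric label, triangles libraries with a library ID, bars the mean of the group. Every blue point of HNRNPAB (174 to 277 CPM) and PTBP1 (250 to 380 CPM) lies above both Control points, and every blue point of HNRNPLL (23.7 to 32.1 CPM) lies below them.

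Across the OE groups, 5 members stood apart from Control in every library. All 12 OE libraries lay above both Control libraries for HNRNPAB, HNRNPK, HNRNPUL1 and PTBP1 (4.31% of all genes) and below both for HNRNPLL (3.87%). HNRNPAB had its lowest OE values in SRSF9-OE, at 177, 174 and 176 CPM, followed by SRSF6-OE with 180 and 215 CPM and SRSF4-OE with 202 and 221 CPM. PTBP1 had 318, 347 and 264 CPM in SRSF2-OE, 250 and 322 CPM in SRSF4-OE, and 269, 255 and 302 CPM in SRSF9-OE. Its values in the OE groups overlapped each other throughout. HNRNPK ranged from 549 to 670 CPM over the OE libraries, against 537 and 541 CPM in Control, with log2 fold changes of 0.04 to 0.18, the lowest of which, in SRSF9-OE, was -0.017 without Control rep 3. HNRNPUL1 ranged from 247 to 364 CPM, against 228 and 244 CPM, and HNRNPLL from 23.7 to 32.1 CPM, against 37.4 and 32.8 CPM in Control. HNRNPLL had log2 fold changes of -0.24 to -0.29 in the 5 groups. The separations of HNRNPK and HNRNPUL1 from Control are small beside their range among OE libraries.

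Several members differed between the groups in other ways, but none passed edgeR's test over all groups. TIA1 had 61.1, 57.04 and 83.3 CPM in SRSF2-OE, and 84.6, 78.6 and 79.7 CPM in SRSF9-OE, all below the 155 and 89.3 CPM of Control. In SRSF4-OE it had 117 and 64.8 CPM and in SRSF6-OE 119 and 73.6 CPM, so that each group held a library above the lower Control library. The higher library of SRSF4-OE, SRSF6-OE and Control carries a library ID, whereas SRSF2-OE and SRSF9-OE are numeric only. TIA1 was higher with a library ID by log2 0.66 ± 0.14. The log2 fold change of TIA1 was -0.48 ± 0.19 in SRSF2-OE (edgeR adjusted p = 0.334) and -0.21 ± 0.20 in SRSF9-OE (edgeR adjusted p = 0.879). In SRSF9-OE it was -0.31 without Control rep 3 and -0.13 without Control rep 1-2.

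HNRNPD had 231 and 180 CPM in SRSF6-OE, 190, 175 and 196 CPM in SRSF9-OE and 229 and 170 CPM in TRA2B-OE, against 179 and 140 CPM in Control. The log2 fold changes of HNRNPD in these 3 groups were 0.37, 0.40 and 0.32, and in SRSF2-OE, with 149, 168 and 157 CPM, 0.16. Its paralog HNRNPDL had 222, 215 and 246 CPM in SRSF2-OE, which all lay between the 270 and 196 CPM of Control. HNRNPDL had 341 and 280 CPM in SRSF4-OE and 312 and 273 CPM in TRA2B-OE, all above Control. HNRNPA2B1 had 1059 and 647 CPM in TRA2B-OE, against 702 and 454 CPM in Control, so the groups overlapped. MBNL2, which lay below Control in the other 4 groups, had 55.5 and 81.7 CPM in SRSF6-OE, on both sides of the 71.1 and 58.6 CPM of Control.

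The label set moved with many members, so each OE library was also set against the Control library of its own label set, which compares 3 libraries with Control rep 1-2 and 9 with Control rep 3. Every OE library lay above that Control library for 8 members: the hnRNPs HNRNPA2B1, HNRNPAB, HNRNPD, HNRNPDL, HNRNPK, HNRNPUL1 and SYNCRIP (7 of 19), and PTBP1 (1 of 21 other regulators), against 6.62% of all genes. HNRNPD exceeded Control rep 1-2 by log2 0.36 to 0.37 and Control rep 3 by log2 0.09 to 0.62. HNRNPDL exceeded the same libraries by log2 0.21 to 0.41 and 0.13 to 0.51. HNRNPLL and TIA1 lay below in every library (6.63% of all genes). These counts rest on 1 Control library in each label set. PTBP1 can also be counted as an hnRNP, so the split between the classes depends on where it is placed.

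Between the label sets themselves, members were more often higher with a library ID, 24 of 40 by the sign of the fold change (50.8% of all genes). The difference was largest for PTBP2 (log2 fold change 0.68 ± 0.17), TIA1 (0.66 ± 0.14), HNRNPA3 (0.62 ± 0.21) and HNRNPH1 (0.57 ± 0.19). HNRNPH1, which binds runs of G and is the hnRNP with the highest CPM, had 1089, 1169, 866 and 1095 CPM in the library-ID libraries of SRSF4-OE, SRSF6-OE, TRA2B-OE and Control, and 523 to 832 CPM in the 10 numeric libraries. The sets did not overlap, while HNRNPH1 differed from Control by at most log2 0.16 in the 5 contrasts. Without a single library that difference ran from -0.27 to 0.40, the ends being TRA2B-OE without its rep 3 and SRSF4-OE without Control rep 1-2. Of the 40 members, 15 were higher in the library-ID library in all 4 groups that hold both kinds (12.7% of all genes), 8 hnRNPs and 7 other regulators, and 3 were lower, HNRNPC, HNRNPUL1 and PTBP1 (10.6%). No member passed edgeR's test for label set (0.0328% of all genes), the smallest adjusted p being 0.106, for TIA1. Without adjustment, 14 members had p below 0.05, 13 of them higher with a library ID (13.6% of all genes). DCN, the fibroblast marker, also moved with the label set, at 243, 301, 363 and 413 CPM with a library ID and 6.30 to 160 CPM with a number. Its part in these differences was not tested.

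**Figure D5:**
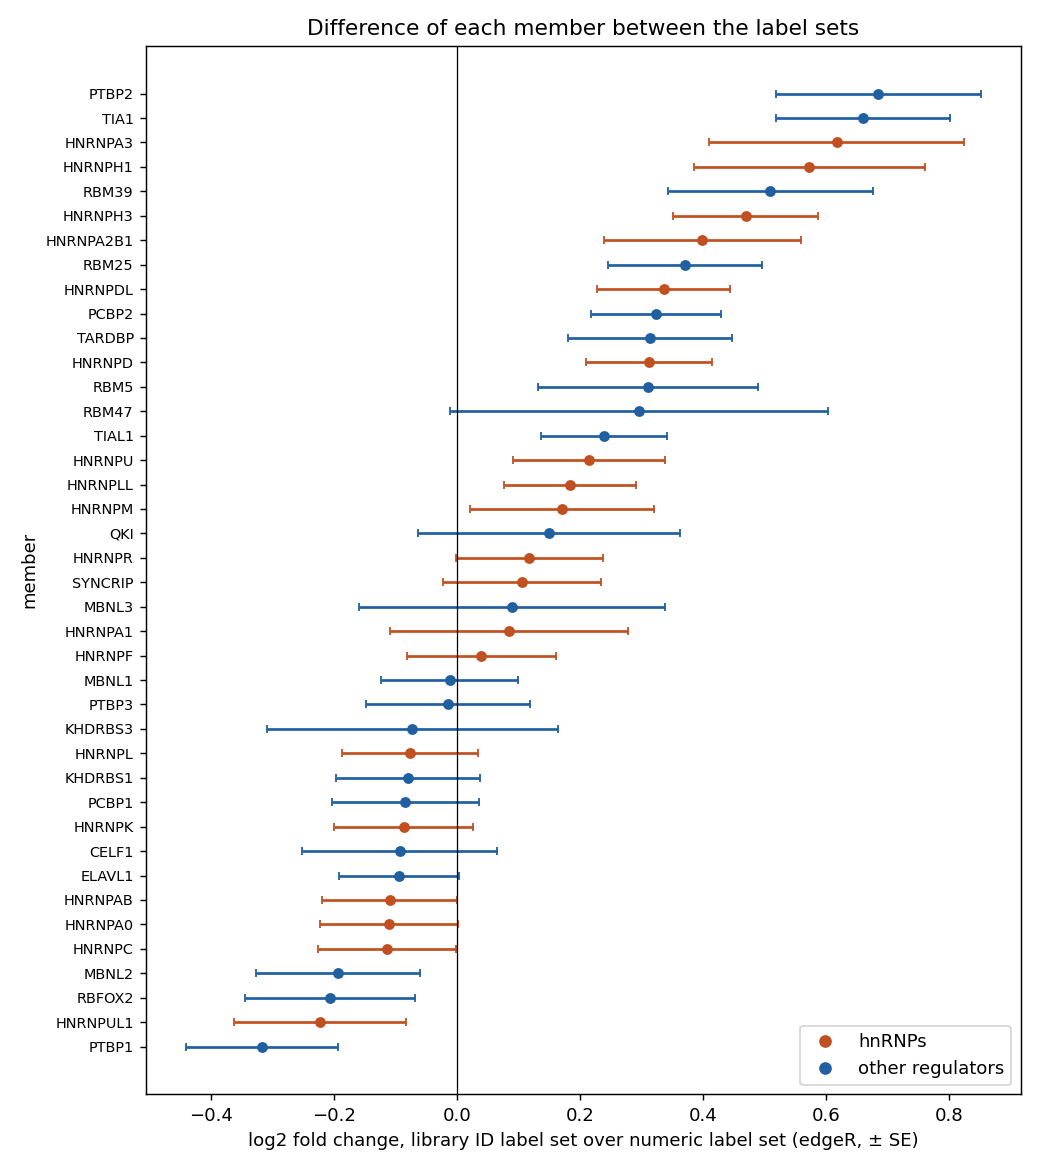
Log2 fold change of each member between libraries with a library ID and libraries with a numeric label (edgeR, ± standard error), hnRNPs in orange and other regulators in blue. Values run from PTBP2 at 0.68 to PTBP1 at -0.32, and orange and blue points are mixed along the whole range.

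The classes were also summed per library as a description. The hnRNPs held 5350 ± 247 CPM in SRSF2-OE (SD, n = 3), 6369 ± 209 in SRSF4-OE (n = 2), 6310 ± 547 in SRSF6-OE (n = 2), 5331 ± 306 in SRSF9-OE (n = 3), 6281 ± 745 in TRA2B-OE (n = 2) and 5572 ± 758 CPM in Control (n = 2). The other regulators held 2541 ± 133, 2838 ± 158, 3017 ± 33.4, 2562 ± 58.6 and 2564 ± 164 CPM in the same OE groups, and 2698 ± 447 CPM in Control. The group means differed from that of Control by less than the SD of Control, except that of the hnRNPs in SRSF4-OE. With a library ID, the hnRNP sum was 6517 in SRSF4-OE, 6697 in SRSF6-OE and 6808 in TRA2B-OE, against 6108 CPM in Control. With a numeric label it was 5086 to 6221 CPM over the 9 OE libraries, against 5036 CPM in Control. The hnRNP sum was 2.26, 1.93 and 2.15 times the sum of the other regulators in SRSF2-OE, 2.21 and 2.28 times in SRSF4-OE, 2.24 and 1.95 times in SRSF6-OE, 2.19, 2.07 and 1.98 times in SRSF9-OE and 2.54 and 2.35 times in TRA2B-OE, against 2.03 and 2.11 times in Control. Both ratios lay above those of Control in SRSF4-OE and TRA2B-OE, and 1 library each of SRSF2-OE, SRSF6-OE and SRSF9-OE lay below both.

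HNRNPH2, the X-linked paralog of HNRNPH1, and RBM10, the X-linked relative of RBM5, were listed at 1 and 0 counts over all 14 libraries. Both sit in stretches of neighbouring X genes at 10 counts or fewer, 12 genes around HNRNPH2 and 6 around RBM10. These stretches include RPL36A (6 counts), NDUFB11 (0 counts) and UBA1 (6 counts), which most cells express. On either side of the stretch at RBM10, SLC9A7 had 40740 and CDK16 104145 counts. The 2 members are therefore given only as listed at or near 0, and nothing is said of their expression. Reads of HNRNPA1, HNRNPA3, HNRNPC, HNRNPK and HNRNPL can be shared with their annotated pseudogenes, and the 74 pseudogenes of HNRNPA1 held 135 to 246 CPM in sum, against 261 to 426 CPM for the gene itself. The levels of these 5 genes are uncertain to that extent. Annotated genes on the opposite strand also overlap HNRNPA2B1 (CBX3 and NFE2L3) and HNRNPUL1 (TGFB1), and C2orf42 overlaps TIA1 on the same strand. Further members, such as CELF1, HNRNPH3 and RBM5, have overlaps too. Reads from stretches shared on the same strand cannot be assigned. Those shared between strands can be assigned only if counting used strand, which is not known.

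Among the SR and SR-like genes, the family of the introduced factors, 13 of 14 were tested, and none passed edgeR's test in any contrast. DESeq2 called SRSF12 lower in SRSF2-OE. In SRSF4-OE it called SRSF4, SRSF7 and TRA2B higher and SRSF12 lower. In SRSF6-OE it called SRSF7 higher and SRSF12 lower, in SRSF9-OE SRSF9 higher, and in TRA2B-OE TRA2B higher. The median log2 fold change of the 13 was 0.25 to 0.36 over the 5 contrasts, above that of hnRNPs in each. SRSF7 had 174 and 162 CPM in SRSF4-OE, against 129 and 96.8 CPM in Control. SRSF12, a weakly expressed family member, had 0.76 and 0.40 CPM in SRSF4-OE, against 1.98 and 1.88 CPM in Control. Of 43 further RNA-binding regulators, 33 were tested and none passed edgeR's test. DESeq2 called 0, 2, 1, 0 and 1 of them in SRSF2-OE, SRSF4-OE, SRSF6-OE, SRSF9-OE and TRA2B-OE: ESRP1 lower and ELAVL2 higher in SRSF4-OE, ELAVL2 higher in SRSF6-OE, and YBX1 higher in TRA2B-OE. ESRP1, an epithelial splicing regulator, had 12.5 and 11.2 CPM in SRSF4-OE, against 68.9 and 131 CPM in Control. YBX1, a cold-shock protein that packages mRNA, had 513 and 739 CPM in TRA2B-OE, against 281 and 425 CPM in Control. Of the genes on these lists that were not tested, PUF60, U2AF1 and SRSF8 were listed at 0 in every library. TAF15 and RBM3 were listed at no more than 0.042 CPM. As with HNRNPH2 and RBM10, nothing is said of the expression of these genes.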

How the data were processed

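The authors' deposited table holds raw counts of reads per gene for 18 samples; whole numbers summed to 36426438 to 70515965 per sample. Per the labels' protocols, stranded mRNA libraries were sequenced as paired reads of 101 bases. The submitters' processing notes name Trimmomatic 0.36, STAR 2.5.1b, Subread, featureCounts and GRCh37, with no role. The sources used here do not say whether counting used strand, or reads or pairs, so overlapping and antisense genes can share reads. Depth sets the precision of low genes: KHDRBS3, at about 3 CPM, rests on the fewest counts of the members tested.

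Lanes of the same library (shared library ID and barcode) were summed; their mean chi-square per gene was 3.82 to 9.06, against 58.8 to 318 for other pairs within a group. Counts were filtered (filterByExpr, minimum count 10), scaled by TMM and fitted with edgeR 4.0.16 in R 4.3.3 (quasi-likelihood, group and label set, all 14 libraries, 7 residual degrees of freedom, common biological coefficient of variation 0.318). Calls needed a Benjamini-Hochberg adjusted p under 0.05 over 21326 genes. DESeq2 1.42.0 and limma 3.58.1 were alternatives. CPM are counts scaled to the TMM-adjusted library size, as mean ± SD over libraries. The edgeR fit was run on simulated counts with known changes and no label set effect. This checked the size and sign of large changes and the number of false calls. How often the fit calls changes as small as those of the members is not reported here.

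Gene names, exon lengths and overlaps came from GENCODE release 29, on another build than the counts, matched by ID (55951 of 60252). Members and lists were chosen with earlier results of these data known. Members named by rule were those called by edgeR or DESeq2, the 3 highest and 3 lowest non-overlapping members of each contrast (mean of at least 3 CPM), the 6 with the smallest p over all groups, and the 2 highest and 2 lowest by CPM in each class. HNRNPK, HNRNPH3, the motifs and the genes named from the other lists were chosen after their values were seen.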

Additional observations from a re-analysis of the deposited data

How the results depend on the processing

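The count of members called depended on the tool and on how lanes were treated. DESeq2 called 1 member in SRSF4-OE, 2 in SRSF6-OE, 1 in TRA2B-OE and 1 in the test over all groups, with the same counts when no low-count filter was used (added after seeing the data). With the 18 samples entered as separate replicates, edgeR called 1 member in SRSF2-OE, 7 in SRSF4-OE, 8 in SRSF6-OE, 9 in TRA2B-OE and 8 over all groups, against 6.40%, 16.5%, 19.2%, 13.8% and 17.7% of all genes; lanes of the same library then count as replicates. Leaving out any library left every count of edgeR calls at 0. Of 155 alternative counts of members called, 142 stayed at the count given, and of 270 alternative class medians, 252 moved by less than 1 SD between libraries while 24 changed sign. The hnRNP median was 0.031 in SRSF6-OE with library totals only, 0.27 in TRA2B-OE with pseudogene counts added to the parent gene (added after seeing the data), and 0.090 to 0.28 in SRSF4-OE over fits without a library. The median of other regulators in SRSF2-OE was -0.19 with library totals only, -0.23 without the label set term, -0.020 with only the 2 groups fitted and -0.23 with the replicate block; it ran from -0.18 to -0.0034 over fits without a library. Over such fits it ran from -0.14 to 0.10 in SRSF4-OE, -0.051 to 0.29 in SRSF6-OE, -0.16 to 0.050 in SRSF9-OE and -0.15 to 0.052 in TRA2B-OE, with the highest value without Control rep 1-2 and the lowest without Control rep 3 in each, and it was -0.13 in SRSF6-OE with library totals only. In SRSF2-OE it stayed below 0 in all of these fits; it changed sign in 7 of 14 such fits in SRSF4-OE, 2 in SRSF6-OE, 1 in SRSF9-OE and 1 in TRA2B-OE. The hnRNP median changed sign in SRSF2-OE with library totals only (-0.017) and without the label set term (-0.0093), and in SRSF9-OE without the label set term (-0.026), with the replicate block (-0.025) and without Control rep 3 (-0.036). With PCBP1, PCBP2 and PTBP1 counted as hnRNPs, the median of the other regulators in SRSF4-OE turned from -0.02 to 0.00066. Deviations from the group mean correlated in both directions between same-numbered libraries (r of -0.42 to 0.49 over 31 same-numbered pairs, 16 over 0.1). In groups of 2 libraries these deviations mirror each other, so the check cannot exclude a pairing by replicate number. The replicate block changed no count of member calls. For the 31 log2 fold changes picked because the member was called or its groups did not overlap, 806 alternative values were made. None of these changed direction and 21 passed the threshold, under DESeq2 or the 18 separate samples. Picking members whose groups do not overlap favours a steady direction. Outside the 31, HNRNPK in SRSF9-OE and HNRNPH1 did change direction when a single library was left out. Other causes were not tested. Depth limits mainly KHDRBS3 and RBM47, the members tested with the fewest counts.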

Other observations

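Zero counts were common on particular chromosomes. Of 831 protein-coding genes on the X chromosome, 300 were listed at 0 in all 14 libraries (36.1%), and on chromosome 21 the share was 31.4%, against at most 18.9% (chromosome 6) for the other chromosomes, chromosome Y set aside. RBM10 is among these X genes and HNRNPH2, with 1 count in all, just misses them, whereas MBNL3 on the same chromosome had 18.04 to 43.9 CPM. CELF1 binds GU-rich RNA. It had 266 CPM in SRSF6-OE rep 3 and 161 CPM in SRSF6-OE rep 1-2, against 163 and 128 CPM in Control. With all libraries its log2 fold change in SRSF6-OE was 0.54 ± 0.22, and neither edgeR nor DESeq2 called it. Its only DESeq2 call there came in the fit without SRSF6-OE rep 1-2. Rep 3, the higher library, then stands for the group alone, so that call tells nothing of SRSF6-OE as a group. CELF1 was chosen after its values were seen. Among the hnRNPs with a promoter match, the 7 tested genes that hold CACGTG had median log2 fold changes of 0.15, 0.30, 0.37, 0.10 and 0.28 in SRSF2-OE, SRSF4-OE, SRSF6-OE, SRSF9-OE and TRA2B-OE, and the 11 without it 0.06, 0.13, 0.18, 0.03 and 0.11; the ranges overlapped in each contrast.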
